A study of Mus musculus with 8 samples.

Results

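Gypc, the genes of the protein 4.1 family and Mpp1 were followed in the epidermis of imiquimod-treated mice with and without an epidermis-specific deletion of Hnrnpu. The 9 genes were taken by symbol (Gypc, Epb41, Epb41l1, Epb41l2, Epb41l3, Epb41l4a, Epb41l4b, Epb41l5 and Mpp1) from the 23171 genes of the deposited count table. All 9 were present, and all 9 passed the filter on low counts that left 14004 tested genes. Gypc was chosen because no other called gene averaging 4 or more CPM (counts scaled to library size) rose as far, so its difference between genotypes is a description here and no test of it is read. The other 8 genes were chosen for their relation to Gypc, with earlier results of these data known.

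The series holds 8 libraries from mouse epidermis, labelled as keratinocytes. The 4 cKO libraries come from mice with an Hnrnp-u knockout restricted to the epidermis, and the 4 WT libraries from control mice. Mice of both genotypes received imiquimod, an agonist of Toll-like receptors that causes psoriasis-like inflammation when applied to mouse skin, and all libraries carry the same batch label. The sources used here do not name the line that drives the deletion, the deleted exons, the strain, the age or the dose of imiquimod, and no untreated epidermis was analysed here. The question is how loss of Hnrnpu, the gene of a nuclear RNA-binding protein, alters gene expression in inflamed epidermis.

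Glycophorin C, the product of Gypc, is a short sialic acid-bearing protein that spans the plasma membrane and is best known from red blood cells. Its cytoplasmic tail binds protein 4.1R, the product of Epb41, and p55, the palmitoylated guanylate kinase-like protein made from Mpp1, and these proteins tie the spectrin and actin network to the membrane. The family members 4.1N (Epb41l1), 4.1G (Epb41l2) and 4.1B (Epb41l3) share the FERM, spectrin-actin-binding and C-terminal regions of protein 4.1R and serve the membrane skeleton of other cells. Epb41l4a, Epb41l4b and Epb41l5 encode shorter or more distant FERM proteins, of which those made from Epb41l4b and Epb41l5 (Lulu2 and Lulu1) act in epithelial junctions and cell movement.

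Promoter windows of RefSeq (build GRCm38.p6, 250 bases before to 50 after each annotated start) were found for 6 of the 9 genes, in 12 windows. Those of Mpp1 and Epb41l2 are shown because these are the genes with a window whose libraries did not overlap between genotypes. Each reads 5′ to 3′ on the strand of the gene and stops at the start, so 250 bases are printed, with matches to the motifs searched in capitals. The Mpp1 stretch lies at chrX:75131017-75131266 on the minus strand and the Epb41l2 stretch at chr10:25408118-25408367 on the plus strand.
Mpp1: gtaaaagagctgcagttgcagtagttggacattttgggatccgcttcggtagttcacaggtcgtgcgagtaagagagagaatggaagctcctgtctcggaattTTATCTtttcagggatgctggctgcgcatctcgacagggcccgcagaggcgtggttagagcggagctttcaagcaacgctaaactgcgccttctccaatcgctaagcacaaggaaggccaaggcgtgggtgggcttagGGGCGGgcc
Epb41l2: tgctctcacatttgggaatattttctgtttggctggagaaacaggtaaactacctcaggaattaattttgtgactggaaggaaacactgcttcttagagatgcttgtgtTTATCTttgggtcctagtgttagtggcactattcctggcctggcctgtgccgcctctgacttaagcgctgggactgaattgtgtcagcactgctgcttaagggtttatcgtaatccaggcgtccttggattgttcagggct
The motifs, searched on both strands, were the GC box (GGGCGG), the TATA box (TATAAA), the AP-1 site (TGANTCA), the GATA site (AGATAA) and the E-box (CACGTG). The Mpp1 window held 1 GATA site and 1 GC box and had 57.0% GC, and the Epb41l2 window held 1 GATA site, no other match and 50.3% GC. No window of Epb41, Epb41l1, Epb41l3 or Epb41l4b held a GATA site. Of all 32851 windows, 11.2% held the GATA site, 35.7% the GC box, 13.6% the TATA box, 7.81% the AP-1 site and 7.15% the E-box, and the median GC content was 52.7%. These matches describe letters in a window and are no evidence of binding.

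Libraries held 37158621 to 38865722 counts, with 18265 to 18992 genes detected. Hnrnpu was at 190, 373, 355 and 312 CPM in cKO replicates 1 to 4 and between 424 and 455 CPM in WT, so the genotypes did not overlap although transcript remained in all cKO libraries. The fitted log2 difference was -0.51 ± 0.19 (SE), and -0.33 without cKO replicate 1 (adjusted p = 0.191 by edgeR over all libraries). Counts cover the whole gene and do not isolate the deleted part. The second principal component of log2 CPM, with 26.1% of the variance, set cKO replicates 1 and 4 (36.7 and 56.8) apart from cKO replicates 2 and 3 (-35.8 and -27.7). The 14 markers of basal and suprabasal keratinocytes summed to 67718 to 100658 CPM in cKO and 77520 to 100751 CPM in WT, and each had more than 10 counts in at least 1 library.

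Gypc was barely counted in WT epidermis and was far higher in every cKO library. Its counts were 417, 347, 243 and 577 in cKO replicates 1 to 4, against 9, 6, 6 and 14 in WT replicates 1 to 4. In CPM, scaled with TMM factors, the levels were 10.8, 9.72, 5.86 and 13.7 in cKO and 0.236, 0.166, 0.167 and 0.375 in WT. The lowest cKO library stood 15.6-fold above the highest WT library. Mean levels (± SD, n = 4 each) were 10.04 ± 3.26 CPM with the deletion and 0.236 ± 0.0983 CPM without it, and the fitted log2 fold change was 5.39 ± 0.38 (SE), a 41.9-fold difference.

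The WT side of this contrast rests on 35 reads in all, against 1584 in cKO. Exact Poisson 95% intervals, which cover counting error only, ran from 2.20 to 13.06 counts for WT replicates 2 and 3, and from 7.65 to 23.5 counts for WT replicate 4. The intervals of the cKO libraries, 213 to 276 counts for replicate 3 and 531 to 626 counts for replicate 4, do not meet, so the spread of Gypc within cKO is wider than counting error. The fitted value ran from 5.20 without cKO replicate 4 to 5.70 without WT replicate 4. On the log2(FPKM + 1) scale it was 2.32, since the pseudocount lies far above the WT level. After Gypc, the next gene in the same order of rises (4 CPM or more on average) was Esr1, the estrogen receptor α gene, at 4.12 ± 0.33. Of the called genes of lower abundance 2, Ttr and Cldn3, had larger fitted rises than Gypc (6.35 and 5.71, at means of 1.53 and 1.17 CPM).

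The order of Gypc among cKO libraries was not that of Hnrnpu, counted over the whole gene. The cKO library with the least Hnrnpu, replicate 1 at 190 CPM, had 10.8 CPM of Gypc, and the library with the most Hnrnpu, replicate 2 at 373 CPM, had 9.72 CPM. The extremes of Gypc, replicate 4 at 13.7 and replicate 3 at 5.86 CPM, had 312 and 355 CPM of Hnrnpu. With 4 cKO libraries no correlation was computed, and a link of Gypc to the level of Hnrnpu was not tested.

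Levels of different genes are compared in FPKM, which scales counts to library total and to a single length per gene. The lengths implied by the deposited values were 2182 bases for Gypc, 2525 for Mpp1 and 14414 for Epb41. The other members lay between 6656 (Epb41l2) and 16576 bases (Epb41l1). Whether these lengths match the transcripts present in epidermis was not tested. Ranks, ratios and shares between genes depend on them.

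**Figure D1:**
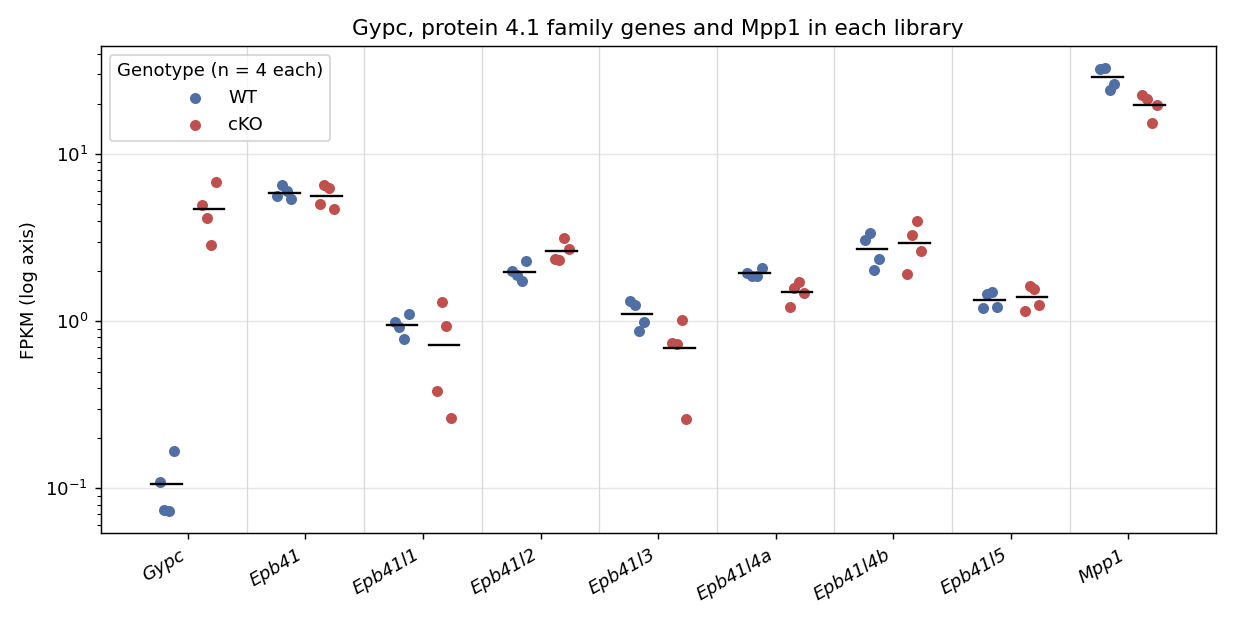
Level of each of the 9 genes in FPKM (log axis), with 1 point per library, WT in blue, cKO in red, and a black bar at the mean of 4 libraries. Gypc runs from 0.0731 to 0.168 FPKM in WT and from 2.88 to 6.80 FPKM in cKO, while the other 8 genes differ far less between genotypes than among themselves.

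Per length, Gypc passed from the lowest of the 9 genes to a place among the higher ones. In WT its level was 0.106 FPKM, under Epb41l1 (0.951 FPKM), and the ranges of these neighbours over libraries did not overlap. In cKO it reached 4.71 FPKM, at rank 3 after Mpp1 (19.7 FPKM) and Epb41 (5.64 FPKM), and its range overlapped those of Epb41 and of Epb41l4b (2.95 FPKM). The remaining order in cKO was Epb41l2 (2.63), Epb41l4a (1.50), Epb41l5 (1.39), Epb41l1 (0.721) and Epb41l3 (0.690 FPKM). Of these neighbours only Epb41l2 and Epb41l4a had ranges that did not overlap. The order in WT was Mpp1 (28.9), Epb41 (5.89), Epb41l4b (2.70), Epb41l2 (1.98), Epb41l4a (1.93), Epb41l5 (1.35), Epb41l3 (1.11) and Epb41l1 (0.951 FPKM). There Mpp1, Epb41 and Epb41l4b were set apart from each other, as were Epb41l4a and Epb41l5, and the other neighbours overlapped. Relative to its anchor Epb41, Gypc stood at FPKM ratios of 0.992, 0.634, 0.460 and 1.45 in cKO replicates 1 to 4. In WT these ratios were 0.0114 to 0.0310. In CPM, which is not scaled to length, the cKO means were 10.04 for Gypc and 80.1 for Epb41.

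None of the 8 partner genes was called by edgeR's quasi-likelihood test at an adjusted p below 0.05. Across all 14004 tested genes 1.32% were called, 0.671% as higher and 0.65% as lower in cKO, so the absence of a call among 8 genes does not set them apart from the background. At an unadjusted p below 0.05 there were 3 of the 8, against 18.6% of all tested genes. DESeq2 called 2 of the 8 as lower, Mpp1 and Epb41l4a, but it called far more genes in all, 3.68% of the 15966 with an adjusted p as lower and 4.43% as higher. Limma-voom, which called 0.507% of tested genes as higher and 0.707% as lower, called none of the 8, nor did limma on either FPKM scale. With the replicate number as a block, edgeR called 1 of the 8, Mpp1, as lower, where it called 0.657% of all tested genes as lower and 0.885% as higher. Their median log2 fold change was -0.27, where that of all tested genes was 0.01.

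Of the direct partners of glycophorin C, Mpp1 was lower in every cKO library. It stood at 56.7, 58.1, 36.1 and 45.7 CPM in cKO replicates 1 to 4 and at 81.2, 84.9, 64.0 and 68.0 CPM in WT replicates 1 to 4. The genotypes did not overlap, and cKO replicate 3 was the lowest. The log2 fold change was -0.60 ± 0.16 (SE), or 66.0% of WT, with a 95% confidence interval of -0.97 to -0.23. It did not pass over all genes (edgeR adjusted p = 0.1, and 0.0273 to 0.221 over the alternatives), and a two-sided exact permutation test gave p = 0.0286, the lower limit of a design with 4 libraries a side. Mpp1 shares 45 of its 5343 annotated exonic bases with Dkc1 on the opposite strand, a gene at 40.9 to 72.1 CPM in cKO and 46.5 to 66.6 CPM in WT (log2 fold change 0.07 ± 0.18 SE).

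Epb41, the gene of protein 4.1R itself, showed no such difference. Its levels were 72.2, 101.3, 84.2 and 62.6 CPM in cKO and 80.8, 96.4, 90.1 and 80.0 CPM in WT, and the cKO libraries fell on both sides of the WT range. The log2 fold change was -0.12 ± 0.15 (SE, edgeR adjusted p = 0.726), with a 95% confidence interval of -0.45 to 0.22. Differences in Epb41 within that interval are not shown to be absent. Leaving out a single library moved the value between -0.23 (without cKO replicate 2) and -0.01 (without cKO replicate 4).

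**Figure D2:**
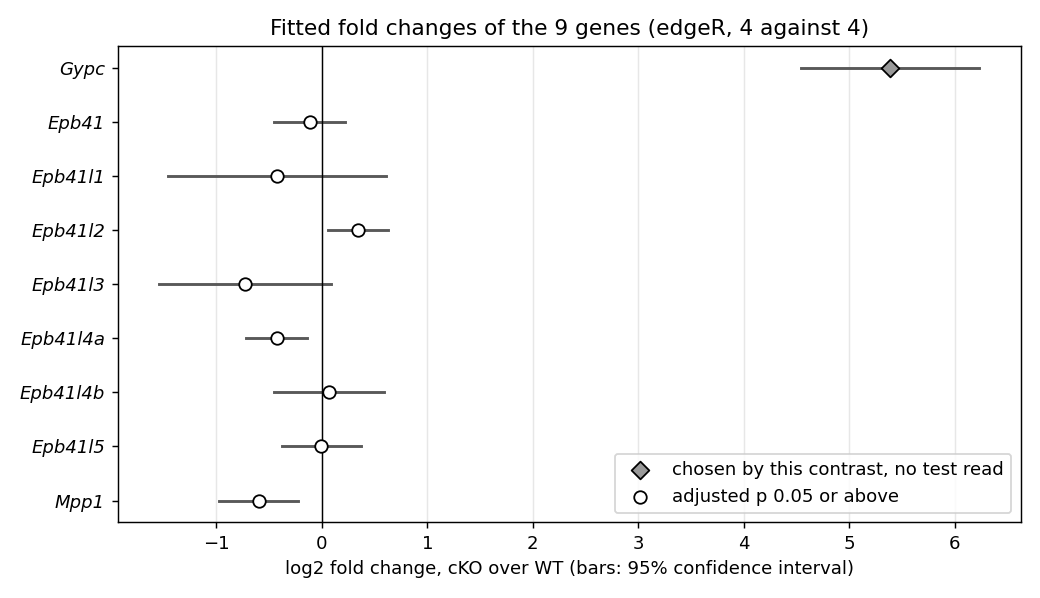
Fitted log2 fold change of each gene (cKO over WT, x axis), with bars for the 95% confidence interval and open circles for genes with an adjusted p of 0.05 or above. Gypc, the grey diamond, was chosen by this contrast and lies at 5.39, and the other 8 lie between -0.73 and 0.34.

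Among the family members closest to protein 4.1R, Epb41l2 was the 1 gene with a higher level in every cKO library. The gene of 4.1G stood at 15.7, 16.5, 19.6 and 16.6 CPM in cKO and at 13.3, 12.9, 12.1 and 15.7 CPM in WT. The groups did not overlap, but the lowest cKO library (15.71) and the highest WT library (15.66) nearly met. The log2 fold change was 0.34 ± 0.12 (SE). The adjusted p by edgeR was 0.188 (0.11 to 0.365 over the alternatives), with an exact permutation p of 0.0286.

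Epb41l3, the gene of 4.1B, had 5.23, 5.55, 6.71 and 1.69 CPM in cKO and 9.28, 9.01, 6.39 and 7.15 CPM in WT. Replicate 3 of each genotype broke the separation, and cKO replicate 4 was far below the rest. The log2 fold change was -0.73 ± 0.36 (SE, edgeR adjusted p = 0.317, exact permutation p = 0.0571), and -0.45 without cKO replicate 4. Epb41l1, the gene of 4.1N, varied most within cKO. Its levels were 6.32, 23.1, 14.6 and 4.02 CPM there, against 16.4, 15.7, 13.5 and 18.7 CPM in WT, so cKO replicates 1 and 4 lay below, replicate 2 above and replicate 3 within the WT range. The coefficient of variation was 72.2% in cKO and 13.3% in WT, and the log2 fold change of -0.42 ± 0.46 (SE, edgeR adjusted p = 0.667) became -0.94 without cKO replicate 2, -0.22 without cKO replicate 1 and -0.14 without cKO replicate 4.

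Of the more distant FERM genes, Epb41l4a was lower in every cKO library. It stood at 10.8, 14.9, 14.2 and 12.0 CPM in cKO and at 17.0, 16.8, 17.2 and 18.8 CPM in WT, with no overlap. The log2 fold change was -0.43 ± 0.13 (SE), or 74.4% of WT. The edgeR adjusted p was 0.126 (0.0341 to 0.298 over the alternatives, the lowest from DESeq2), and the exact permutation p was 0.0286. Together with Gypc, Epb41l2 and Mpp1, this made 4 of 9 genes whose genotypes did not overlap, 2 higher and 2 lower, where 11.1% of all tested genes had no overlap. Gypc is among the 4 by its choice.

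The Lulu genes did not differ beyond their spread. Epb41l4b ran from 22.2 to 42.8 CPM in cKO and from 24.3 to 40.03 CPM in WT, and its log2 fold change of 0.07 ± 0.23 (SE) had an interval of -0.45 to 0.59 at 95% confidence (edgeR adjusted p = 0.905). Epb41l5 ran from 14.1 to 21.7 CPM in cKO and from 14.9 to 19.5 CPM in WT (-0.01 ± 0.17, interval -0.38 to 0.37, adjusted p = 0.987). The signs of both turned when single libraries were left out, and that of Epb41l5 also with other scalings, so no direction is given for them.

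The summed level of the protein 4.1 family was close between genotypes (15.5 ± 2.92 FPKM in cKO, 15.9 ± 1.07 in WT), with shares that differed in part. The FPKM of the 7 family genes summed to 12.8, 17.4, 18.6 and 13.3 in cKO replicates 1 to 4 and to 16.2, 17.3, 14.7 and 15.5 in WT, so cKO replicates 1 and 4 lay below and replicates 2 and 3 above all WT libraries. Epb41 held 36.5 ± 2.49% of the sum in cKO and 37.1 ± 2.67% in WT (SD, n = 4 each). Epb41l2 held 17.3 ± 2.97% in cKO and 12.5 ± 1.69% in WT, Epb41l4a 9.74 ± 0.928% and 12.2 ± 1.15%, and Epb41l3 4.37 ± 1.75% and 6.93 ± 1.01%. These shares are descriptions, since each depends on the other genes of the sum and on the length taken for each gene.

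**Figure D3:**
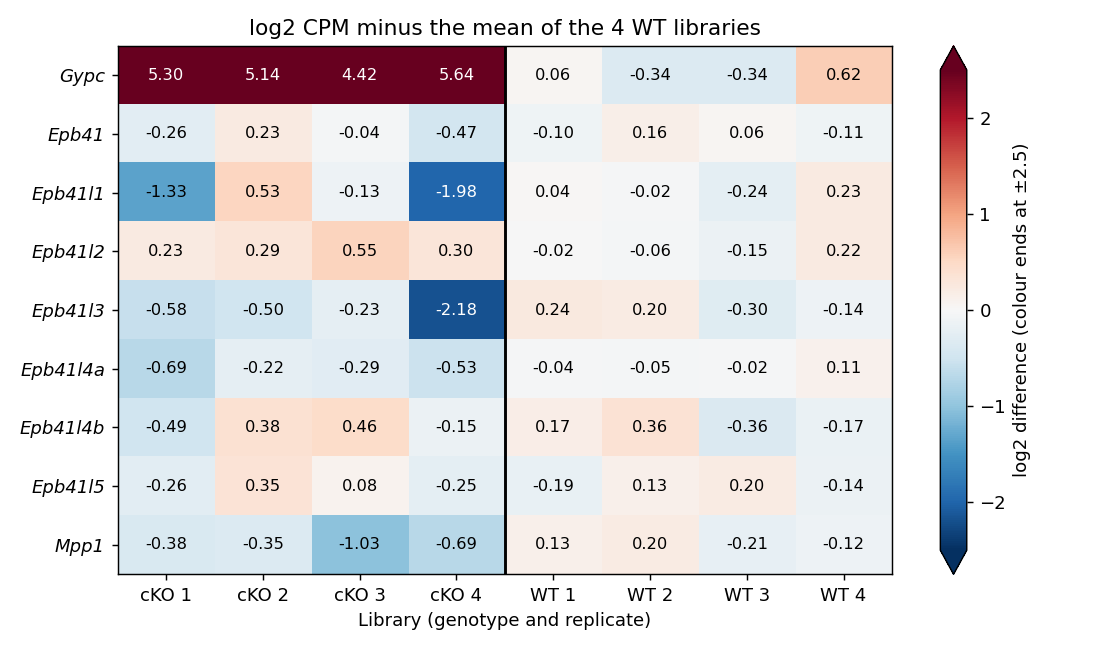
Difference of each library (columns) from the mean of the 4 WT libraries for each gene (rows), in log2 CPM with a prior count of 2, printed in each cell, with colours ending at ±2.5. The cKO replicates 1 and 4 are below the WT mean in 7 of the 8 partner genes, all but Epb41l2, while cKO replicates 2 and 3 are mixed.

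The cKO libraries did not deviate alike. In cKO replicates 1 and 4, the pair set apart on the second principal component, Epb41 stood at -0.26 and -0.47 from the WT mean on the log2 CPM scale, Epb41l1 at -1.33 and -1.98, and Epb41l4b at -0.49 and -0.15. In cKO replicates 2 and 3 the same genes stood at 0.23 and -0.04, at 0.53 and -0.13, and at 0.38 and 0.46. Mpp1 had another order, with replicate 3 lowest (-1.03) and replicates 1 and 2 at -0.38 and -0.35. With each genotype centred on its own mean, the Pearson correlation over the 8 libraries was 0.92 between Epb41 and Epb41l5, 0.85 between Epb41 and Epb41l1, and -0.60 between Gypc and Epb41. These are descriptions over libraries that share the split between cKO replicates, and Gypc in WT rests on 6 to 14 counts per library.

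The genes most like Gypc over the 8 libraries were chosen by the Pearson correlation of log2 CPM among 11635 other genes averaging 1 CPM or more. They were Zfp626 (0.98), Kif21a (0.97), Tfb2m (0.97), Gsdma3 (0.97) and Cldn3 (0.96), and the shared difference between genotypes carries most of these values. Their sizes of change were unlike, from a log2 fold change of 0.27 for Tfb2m, a mitochondrial transcription factor, to 5.71 for Cldn3, a claudin of tight junctions, which went from 0.0408 to 2.30 CPM. After each genotype was centred on its own mean, the 5 most alike were other genes, Nle1 (0.99), Mettl1, Nubp2, Naa50 and Yars2 (0.98 each), all with log2 fold changes between -0.20 and 0.15. These are the highest of 11635 values over 8 libraries, and Gypc in WT rests on 6 to 14 counts per library. No shared regulation is read from them. None of the 8 partner genes was in either list.

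The spectrin, ankyrin and adducin skeleton, to which protein 4.1R ties the membrane, showed 1 called gene among 17 tested of 25. By edgeR, 1.32% of all tested genes were called. Tmod2, a tropomodulin that caps the pointed ends of actin filaments, had 70, 33, 50 and 214 counts in cKO and 5, 1, 8 and 0 in WT, or 2.26 ± 1.92 against 0.0952 ± 0.102 CPM. It rose by a log2 fold change of 4.53 ± 0.88 (SE, edgeR adjusted p = 0.0439), 3.76 without cKO replicate 4, whose level was the highest. The call was held without cKO replicate 2 (adjusted p = 0.03), and was lost without cKO replicates 1, 3 or 4 (0.0808, 0.0647 and 0.0532) or WT replicates 1 to 4 (0.0905, 0.108, 0.0871 and 0.108). The log2 fold change of Tmod2 ran from 3.76 to 5.32 over these fits. The actin genes Actb and Actg1, the most abundant members per length, did not pass (-0.17 ± 0.12 and -0.45 ± 0.14, adjusted p = 0.491 and 0.134 by edgeR). The list's median was 0.05, and 8 genes failed the count filter, among them Sptb, Ank1, Epb42 and Slc4a1, which make the red cell form of this skeleton. Of these, Sptb had 6, 11, 11 and 8 counts in cKO and 1, 2, 3 and 2 in WT. Counts of Ank1, Epb42 and Slc4a1 overlapped between genotypes, and none of these differences was tested.

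Of 22 tested FERM genes outside the 4.1 family none was called by edgeR, DESeq2 or limma-voom, and 2 had an unadjusted edgeR p below 0.05 (list median 0.02). Among all tested genes edgeR called 1.32%, and 18.6% had an unadjusted p below 0.05. Ezr and Msn, which encode the membrane to actin linkers ezrin and moesin, had log2 fold changes of -0.21 ± 0.14 and -0.04 ± 0.22 (SE). Among 17 tested membrane-associated guanylate kinase genes, the class of Mpp1, 1 was called (median -0.01). Cask, a scaffold whose protein also binds protein 4.1, fell from 96.7 ± 1.59 to 69.7 ± 6.60 CPM (-0.47 ± 0.09, edgeR adjusted p = 0.0417). Its libraries stood at 66.3, 75.1, 75.3 and 62.0 CPM in cKO and at 94.4 to 98.0 CPM in WT. This call was held without cKO replicate 2 (0.033) and lost without cKO replicates 1, 3 or 4 (0.0916, 0.0619 and 0.0621) or WT replicates 1 to 4 (0.0887, 0.0966, 0.1 and 0.122). The log2 fold change of Cask ran from -0.50 to -0.42 over these fits. Calls over all genes also fell there, from 185 to between 8 and 36 without a WT library. Tjp1, the gene of a tight junction scaffold, did not pass (-0.23 ± 0.11).

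**Figure D4:**
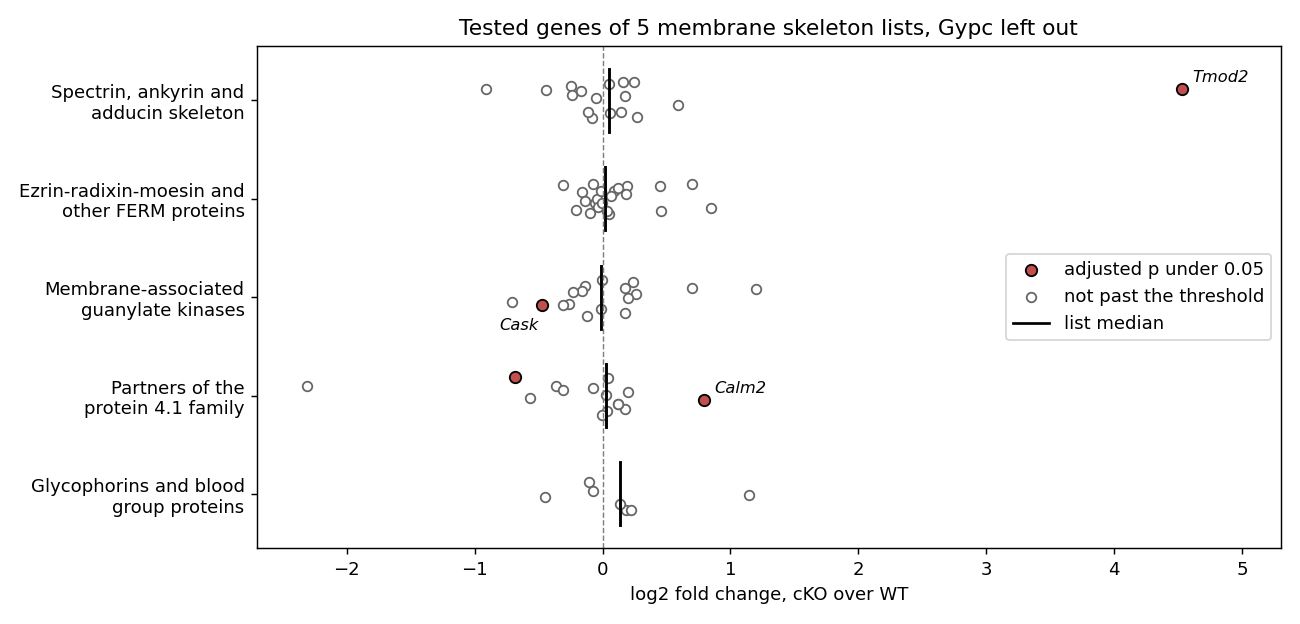
Fitted log2 fold change (cKO over WT, x axis) of each tested gene in 5 lists, with called genes filled (Tmod2, Cask and Calm2 by name), the others open, and a black bar at the list median, Gypc left out. The medians lie between -0.01 and 0.14, and Tmod2 at 4.53 stands alone on the right.

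Among 15 tested partners of the protein 4.1 family, edgeR called 1 as higher and 1 as lower (list median 0.03). It called 0.671% and 0.65% of all tested genes so. Calm2, a gene for calmodulin, which modulates the binding of protein 4.1R to its partners, was at 271, 272, 323 and 385 CPM in cKO and at 172 to 192 CPM in WT. It rose 1.73-fold (0.79 ± 0.13 SE, edgeR adjusted p = 0.0301), while the junction protein gene Ctnnb1 (0.04 ± 0.10) did not pass.

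The Calm2 call was held without cKO replicate 2 or 4. It was lost without cKO replicate 1 (edgeR adjusted p = 0.0537) or cKO replicate 3 (0.0619), and without WT replicates 1 to 4 (0.0651, 0.0819, 0.083 and 0.103). The log2 fold change of Calm2 ran from 0.68 to 0.87 over all these fits. Cadm4, a cell adhesion molecule, is named outside the rule after its values were seen. It stood at 3.95, 3.59, 0.531 and 1.36 CPM in cKO and at 8.39, 20.04, 7.05 and 11.1 CPM in WT (-2.31 ± 0.59 SE, edgeR adjusted p = 0.0819).

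Glycophorins and blood group membrane proteins other than Gypc showed no called gene. Of the other 7 tested genes of that list 1 had an unadjusted edgeR p below 0.05, against 18.6% of all tested genes. DESeq2 called 1 as higher, against 4.43% of all genes with an adjusted p, and limma-voom called none. The abundant Bsg, basigin, and Bcam, the Lutheran adhesion molecule, had log2 fold changes of -0.11 ± 0.13 and 0.14 ± 0.14 (SE).

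Erythroid markers were not higher along with Gypc. The 18 markers summed to 15.8, 24.9, 11.8 and 14.6 CPM in cKO replicates 1 to 4, against 22.0, 52.4, 31.3 and 25.2 CPM in WT. All 5 that were tested had a negative fold change (median -0.81), and none was called by edgeR, with 2 at an unadjusted p below 0.05, 2 called as lower by DESeq2 and none by limma-voom. Over all tested genes 18.6% had an unadjusted edgeR p below 0.05, and DESeq2 called 3.68% of genes with an adjusted p as lower. Of the 18, 12 had at most 10 counts in every library, and Rhag, Rhd, Kel and Tspo2 were among those with at most 1. The haemoglobin genes are near-identical copies, so their single values are uncertain. The 9 platelet and megakaryocyte markers summed to 7.96 to 11.3 CPM in cKO and 10.9 to 14.6 CPM in WT, and the 9 T cell markers to 14.6 to 40.2 and 17.4 to 68.8 CPM.

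Markers of hair follicle cells and melanocytes were higher in cKO, as Gypc was. In cKO replicates 1 to 4, Gypc was at 10.8, 9.72, 5.86 and 13.7 CPM. The melanocyte sums there were 126, 63.0, 108 and 63.1 CPM, and the follicle sums 5808, 4916, 6588 and 7027 CPM. Replicate 4 was highest for both Gypc and the follicle sum, and replicate 1 for the melanocyte sum. Replicate 3, the lowest for Gypc, was not the lowest for either sum. All 15 upper follicle and outer root sheath genes had a positive log2 fold change (median 1.11, 4 called), and their sum was 4916 to 7027 CPM in cKO against 3525 to 4003 CPM in WT. All 10 tested melanocyte genes were positive (median 1.19, 1 called), with sums of 63.0 to 126 CPM in cKO and 35.5 to 55.5 CPM in WT. Of 14 sebaceous gland genes 12 were positive (median 1.29, 1 called), and their sums overlapped (4948 to 9665 and 7128 to 9968 CPM). Those sums weigh Fabp5 most (102092 to 329658 counts per library) and then Scd1 (13984 to 99322), while Dgat2l6, for example, had 24 to 782. In the follicle list Krt79 and Krt17 reached the highest counts (129724 and 123636). The sums are therefore no even measure of their lists. These edgeR counts of 4, 1 and 1 were 9, 5 and 10 with DESeq2 and 4, 1 and 0 with limma-voom, all higher in cKO. Shares called higher over all genes were 0.671% by edgeR, 4.43% by DESeq2 and 0.507% by limma-voom. The part of these cells in the level of Gypc was not tested, and in bulk epidermis more cells of a type and more RNA per cell cannot be told apart. Of the remaining lists, the medians were -0.50 for 10 tested myeloid genes, -0.60 for 5 fibroblast genes, -0.46 for 4 endothelial genes and 0.17 for 6 Schwann cell genes, with 1 called gene, Pmp22, among the last and none in the others by edgeR.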

How the data were processed

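RNA-seq was made from the epidermis of 4 cKO and 4 WT mice, grouped by the titles in the labels. The authors deposited raw read counts, listed by gene symbol, and a matching table of FPKM values. HISAT2 and HTSeq are named per the submitters' processing notes. The sources used here give no version, genome build, annotation or strand setting, so antisense reads cannot be told apart. In the GENCODE M21 annotation, Epb41 shares 142 exonic bases with Gm10300 and 91 with Gm13063, and Mpp1 45 with Dkc1, each on the opposite strand. The deposited FPKM equal the counts scaled by column total and 1 length per gene (20863 of 20863 genes compared, relative tolerance 1e-04), so both tables hold the same reads, and FPKM was used for levels between genes.

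Counts were filtered with filterByExpr, scaled with TMM factors (0.934 to 1.08) and tested with edgeR's quasi-likelihood test (edgeR 4.0.16, R 4.3.3) with no covariate. The Benjamini-Hochberg adjustment ran over the full set of 14004 genes, with 0.05 as the threshold for a call. Standard errors are those implied by the F statistic. Exact two-sided permutation tests ran over the 70 splits of 4 against 4. CPM levels use TMM factors. Alternatives used DESeq2 1.42.0, limma 3.58.1 (voom on counts, or FPKM with a pseudocount of 1 or of 0.1 on the log2 scale, keeping genes that average 0.5 FPKM or more), RLE factors, library size only, other filters, the replicate number as a block, and each library left out.

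Members, lists and tests were chosen with earlier results of these data known. Named genes are all 9 members, every called gene of the 5 membrane skeleton lists, the 2 most abundant uncalled genes of each by FPKM, the next gene in the order of rises (4 CPM or more on average, predicted genes named Gm or Rik left out), and the 5 genes most like Gypc by correlation in each of 2 ways. Tested on simulated counts for 13803 genes, this comparison recovered 53% of 100 genes changed 2-fold and 85.7% of 98 changed 4-fold, with 142 calls, 5 of them false. The simulated counts had equal dispersion in both genotypes and no split among cKO libraries. These rates may therefore not hold for the real counts. No pair of libraries of 1 genotype agreed within sampling noise (lowest chi-square per degree of freedom 47.9), so none looks like a second count of another. This cannot show that they come from separate mice. The design text gives 4 mice per genotype, and all 8 were treated as replicates on that basis. Some genes that the rule names are not reported here.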

Additional observations from a re-analysis of the deposited data

Results flagged for a closer look

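Of 50 groups of 4 libraries examined (the 9 members, Hnrnpu, Esr1 and the other genes named by rule, each genotype apart), 1 had a library far from the others. Epb41l4a stood at 18.8 CPM in WT replicate 4, while the other WT libraries lay between 16.8 and 17.2 CPM, and the gap was 0.837 of the range of the group. Chance gives such a gap in about 1 of 20 groups. WT replicate 4 is the highest library of that gene, and without it the log2 fold change was -0.39 against -0.43 with all libraries.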

How the results depend on the processing

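The log2 fold change of Gypc, given as a description, ran from 2.32 to 5.70 over 17 alternatives, the lowest on log2(FPKM + 1), whose pseudocount shrinks low levels. Mpp1, Epb41l4a, Epb41l2, Epb41l3, Epb41l1 and Epb41 kept their sign in all of them. Mpp1 passed with DESeq2 (-0.60) and with the replicate block (-0.61), and Epb41l4a with DESeq2 (-0.43). Of the 8 members other than Gypc, 2 were thus called with DESeq2, 1 with the replicate block and 0 otherwise (3, 2 and 1 with Gypc, which was chosen for its call). Epb41l4b ran from -0.063 to 0.23 when single libraries were left out and was negative without replicate 2 or 3 of cKO (-0.02 and -0.063) or replicate 3 of WT (-0.04). Epb41l5 ran from -0.13 to 0.075 over left-out libraries. It was positive without cKO replicates 1 and 4 and WT replicates 2 and 3 (0.075, 0.068, 0.042 and 0.059), and with the filter of at least 1 CPM in 4 libraries (0.0047), library size only (0.048), log2(FPKM + 0.1) (0.038) and log2(FPKM + 1) (0.025). The cause was not tested.

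Genes called in all were 185, against 1294 with DESeq2, 349 without a low-count filter, and 8 to 506 with single libraries left out (20, 506 and 66 without cKO replicates 1 to 3, and 34, 36, 8 and 23 without WT replicates 1 to 4). Cask was also lost with library size only (adjusted p = 0.0622), the replicate block (0.0696) and limma on either FPKM scale, and Tmod2 with limma-voom (0.0581) and the replicate block (0.0752). The replicate numbers were not taken as pairs in the main fit. Correlations of deviations between same-numbered libraries were -0.10, 0.13, 0.10 and 0.19, and the block gave 216 calls. The WT library most like cKO replicates 2 and 4 had the same number, and that for cKO replicates 1 and 3 had another. These values cannot show whether the mice were paired. Called genes of the spectrin, ankyrin and adducin list were 2 with DESeq2 and 0 with the replicate block, limma-voom, either FPKM scale or the 1 CPM filter, which drops the low Tmod2, and 0 to 1 with single libraries left out. For guanylate kinases they were 2 with DESeq2, 0 with library size only, the replicate block or either FPKM scale, and 0 to 1 with single libraries left out. For partners of the 4.1 family they were 4 with DESeq2 and 0 to 2 with single libraries left out. For glycophorins without Gypc they were 1 with DESeq2 and 1 with the replicate block. With the block, upper follicle, melanocyte and sebaceous markers had 1, 2 and 0 called genes, against 4, 1 and 1. The size of the Gypc difference rests on 6 to 14 counts per WT library.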
